A study of Mus musculus with 3 samples.

Results

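A set of 10 genes of the NF-kB pathway was followed in Hepa1c1c7 cells, an established mouse hepatoma line, transfected with a Cd74 vector, a Tmem54 vector or an empty vector. Cd74 encodes the invariant chain of MHC class II, which is also a receptor for the cytokine MIF, and Tmem54 encodes a protein predicted to span the membrane. Total RNA was labelled with Cy3 and read on Agilent mouse arrays of 1 colour, 1 array for each vector and all 3 on 1 slide. Time after transfection, the share of cells that took up each vector and the number of cultures are not given in the sources used here. The 10 genes are the Rel subunits Rela, Relb, Nfkb1 and Nfkb2, the IkB family genes Nfkbia, Nfkbie and Nfkbiz, and the ubiquitin-dependent brakes Tnfaip3, Tnip1 and Tnip3. They were taken by gene name with every probe that carries the name, which gave 20 probes on 20 spots. They are 10 of 15796 genes with a symbol and a probe well above background on 1 array or more.

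NF-kB factors are dimers of Rel proteins that IkB proteins hold in the cytoplasm. Signals from cytokine and Toll-like receptors activate a kinase complex that marks IkB for destruction, and the freed dimers enter the nucleus and switch on chemokine, cytokine and survival genes. Among the genes they switch on are several of their own subunits, the IkB proteins that capture them again, and enzymes and adaptors that take apart the ubiquitin chains carrying the signal. In liver cells this loop shapes the acute phase response and protects against death from tumour necrosis factor.

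The Tmem54 array was the lowest of the 3 arrays for 9 of the 10 genes, as it was for 36.6% of the 14473 genes well above background on all 3. All 10 were below the Empty array by some amount, where 51% of all genes were. The differences from Empty ran from -0.11 for Nfkb1 to -1.50 for Tnip3 on the log2 scale. Tnip3 and Tnfaip3 stood at the far end, and Nfkb1 and Rela at the near end. The roles overlapped between these ends, with the brake Tnip1 at -0.27 and the subunit Relb at -0.48. On the Cd74 array the genes went both ways against Empty, with 6 higher (52.4% of all genes were) and 4 lower (47.6% were), and only Tnip3 was at least 1.5-fold higher (3.39% were). With 1 array for each vector there was no spread between cultures, so no difference was tested, and "higher" and "lower" below describe these 3 arrays. Fewer cells expressing a gene and less RNA of it per cell cannot be told apart in such bulk RNA.

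Scaled signals below are the processed signal of a probe divided by the 75th percentile of its array, and a difference is the log2 ratio of 2 scaled signals of the same probe. Signals of different probes were not compared, except to pick the brightest probe of a gene and to sum marker genes. The model error of a difference was 0.20 for the brightest probe of each gene and at most 0.23 for their other probes that could be measured. It follows mainly from a preset multiplicative error of 0.1 in the Feature Extraction software, so it was mostly set in advance and not measured from these spots. It is meant to cover noise within the arrays only, and a difference that exceeds it has not passed a test. Between 55.7% and 57.2% of the 59305 spots other than controls were well above background, and no such spot was saturated (0 spots). Among probes printed several times on an array, the median SD between spots was 0.036 to 0.038 on the log2 scale. The labels were checked on the transfected genes. The Cd74 probe had a processed signal of 10855 on its own array and 22.4 with Tmem54, against 26.8 with Empty. The Tmem54 probe had 19747 on its own array, at least 1494-fold above Empty, and no other array had it well above background.

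Promoter sequence was available from RefSeq (build GRCm38.p6) for 7 of the 10 genes, and not for Nfkb1, Relb and Nfkbiz. The letters of the NF-kB consensus, searched on both strands from 250 bases before to 50 after each start, occurred in the windows of 6 of the 7 genes, and of 9.55% of the 27025 genes in the table. The exception was Rela. The 250 bases upstream of the start are shown for the 4 genes with the largest difference between any 2 arrays among those in the table, because these windows set Tnip3 and Tnfaip3, which differed most, beside Nfkbia and Rela. Capitals mark the consensus, and each strand is that of the gene. The Tnip3 window lies at chr6:65590148-65590397 (plus strand), the Tnfaip3 window at chr10:19015411-19015660 (minus), the Nfkbia window at chr12:55492648-55492897 (minus) and the Rela window at chr19:5637291-5637540 (plus).
Tnip3: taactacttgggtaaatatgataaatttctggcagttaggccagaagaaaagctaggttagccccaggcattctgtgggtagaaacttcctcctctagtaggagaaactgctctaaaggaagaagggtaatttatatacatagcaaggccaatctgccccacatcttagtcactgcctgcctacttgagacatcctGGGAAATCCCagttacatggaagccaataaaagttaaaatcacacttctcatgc
Tnfaip3: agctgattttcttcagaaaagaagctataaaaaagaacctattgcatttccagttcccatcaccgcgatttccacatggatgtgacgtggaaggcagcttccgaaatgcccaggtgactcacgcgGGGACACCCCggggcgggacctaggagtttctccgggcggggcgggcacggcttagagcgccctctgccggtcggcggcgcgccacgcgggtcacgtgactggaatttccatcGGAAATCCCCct
Nfkbia: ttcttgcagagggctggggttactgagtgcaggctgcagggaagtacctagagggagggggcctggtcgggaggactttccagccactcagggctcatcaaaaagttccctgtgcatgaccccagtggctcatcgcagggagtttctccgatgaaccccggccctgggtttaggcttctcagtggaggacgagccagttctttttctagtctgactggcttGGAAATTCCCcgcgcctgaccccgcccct
Rela: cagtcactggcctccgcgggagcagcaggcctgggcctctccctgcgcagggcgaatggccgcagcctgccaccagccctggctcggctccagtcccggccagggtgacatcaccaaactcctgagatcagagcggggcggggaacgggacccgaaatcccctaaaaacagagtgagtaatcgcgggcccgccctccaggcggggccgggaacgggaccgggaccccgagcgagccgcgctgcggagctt

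The Tnip3 window held GGGAAATCCC, which reads as a match on both strands, with its first base at position -54 from the start. Tnfaip3 has 2 starts in the table, and the window shown held GGGACACCCC at -125 and GGAAATCCCC at -12, while the other window held no match (0 matches). Nfkbia held GGAAATTCCC at -29. The remaining genes with a match are shown by 20 bases around 1 site each, at -39 from the first start of Nfkb2, at -106 for Nfkbie and at -57 for Tnip1.
Nfkb2: gtcacGGGAATTCCCcccct
Nfkbie: aaacaGGGGGATTCCggagg
Tnip1: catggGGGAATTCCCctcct

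The site at Nfkb2 -39 and the site at Tnip1 -57 share the same 10 letters, GGGAATTCCC. Nfkb2 held further matches at -11 and, from its second start, at -236 and 11. Of 2 motifs of 9 letters that overlap the consensus, each searched on both strands, GGGANTTCC was found in Nfkb2, Tnfaip3, Tnip1 and Tnip3 and in 1.92% of all genes in the table, and GGGANTTTC in Nfkb2 and Nfkbia and in 1.29%. The unrelated motif CCAAT was found in Nfkb2 and Tnip3, against 41.1% of all genes. Genes with several starts have more windows in which letters can match, and Nfkb2 has 3. A match is a description of letters, and binding was not measured.

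**Figure D1:**
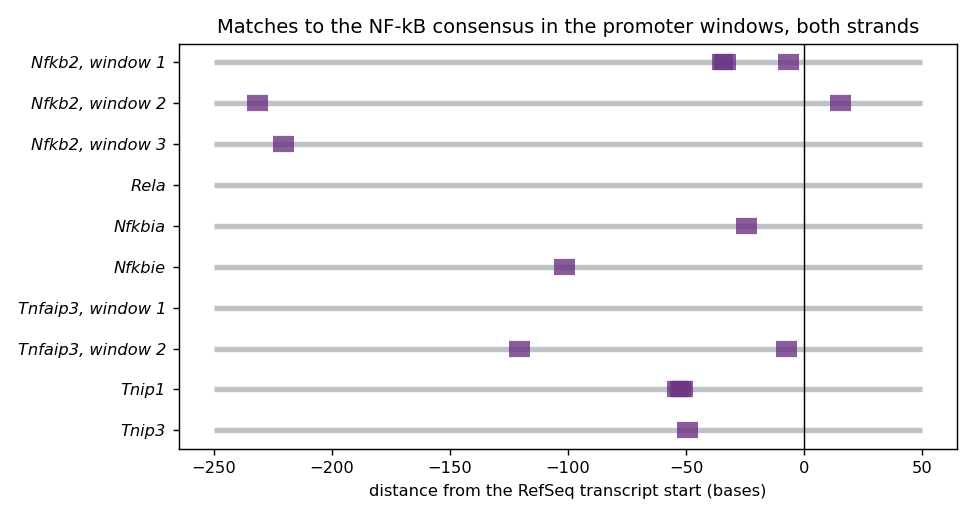
Matches to the NF-kB consensus in the RefSeq promoter windows of the 7 genes, by distance from the start in bases (horizontal axis), with a grey line for each window and a purple block for each match. Matches lie in 8 of 10 windows, and the windows of Rela and of the first Tnfaip3 start hold none (0 matches).

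Among the subunits, Rela encodes the main transactivating partner of the canonical pathway. Its brightest probe (chromosome 19, 5648070 to 5648129, build mm9) had a scaled signal of 44.5 on Cd74 and 33.6 on Tmem54, against 37.5 on Empty. Cd74 was 0.25 above Empty and Tmem54 0.16 below it on the log2 scale, so only the first exceeded the model error of 0.20. A second probe, which crosses an intron (5645363 to 5645529), gave 0.21 and -0.13 in the same order.

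Relb encodes the transactivating partner of the alternative pathway. It had a scaled signal of 4.22 on Cd74 and 2.48 on Tmem54, against 3.46 on Empty (chromosome 7, 20191722 to 20191781, mm9). This was the widest spread among the subunits, with 0.29 above Empty on Cd74, 0.48 below Empty on Tmem54 and 0.77 between Cd74 and Tmem54. A second probe gave 0.15 and -0.51 against Empty. Its dimmest probe (20203058 to 20203117), with processed signals of 94.8 to 100.8, gave -0.02 and -0.06, so the probes of Relb disagreed.

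Nfkb1 encodes a precursor whose processed form pairs with Rela. It had a scaled signal of 19.7 on Cd74 and 20.8 on Tmem54, against 22.6 on Empty (chromosome 3, 135247898 to 135247958, mm9). The 3 arrays lay closer together than for any other of the 10 genes, and Nfkb1 was the only one with Cd74 lowest. Its differences of -0.20 for Cd74 and -0.11 for Tmem54 did not exceed the model error. The other 2 probes gave -0.13 and -0.07 for Cd74, and -0.08 and -0.34 for Tmem54.

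Nfkb2 encodes the precursor whose processed form pairs with Relb. It had a scaled signal of 26.1 on Cd74 and 20.2 on Tmem54, against 23.9 on Empty (chromosome 19, 46386440 to 46386499, mm9). Only the lower value on Tmem54, by -0.24, exceeded the model error, and Cd74 was 0.13 above Empty. The second probe (46386146 to 46386285, across an intron) gave 0.12 for Cd74 and -0.20 for Tmem54.

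Nfkbia encodes IkB alpha, the inhibitor that is destroyed and then made again within each round of signalling. It has 1 probe, which crosses an intron and so reads spliced RNA (chromosome 12, 56590945 to 56591440, mm9). Its scaled signal was 11.9 on Cd74 and 8.77 on Tmem54, against 11.9 on Empty. The Cd74 and Empty arrays were level, with a difference of 0.00, and the Tmem54 array was lower, by -0.43 from Empty and with Cd74 0.44 above it. This probe reads coding sequence across a splice junction, as do the second probes of Nfkb2 and Rela, and is shown because it is the sole measure of the gene.
Nfkbia probe: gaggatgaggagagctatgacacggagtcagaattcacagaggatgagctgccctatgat

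Nfkbie encodes IkB epsilon, a slower feedback inhibitor of the same family. It had a scaled signal of 2.27 on Cd74 and 1.93 on Tmem54, against 2.52 on Empty, from 1 probe (chromosome 17, 45700000 to 45700059, mm9). Both vectors were below Empty, Cd74 by -0.15, inside the model error, and Tmem54 by -0.38.

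Nfkbiz encodes IkB zeta, a nuclear member of the family that helps switch on a later wave of target genes. It had a scaled signal of 0.50 on Cd74 and 0.394 on Tmem54, against 0.592 on Empty (chromosome 16, 55812091 to 55812150, mm9). The arrays were ordered Empty, Cd74, Tmem54, and both steps exceeded the model error, with -0.24 for Cd74 and -0.59 for Tmem54 against Empty. The Tmem54 value is just past the 1.5-fold line of 0.585 and falls short of it under other scalings. A second, dimmer probe gave -0.02 and -0.34, and its remaining probe was not well above background on any array.

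Tnfaip3 encodes a ubiquitin-editing enzyme that shuts off signals from tumour necrosis factor and Toll-like receptors upstream of the IkB kinases. It has 1 probe (chromosome 10, 18720776 to 18720835, mm9). Its scaled signal was 7.44 on Cd74 and 3.56 on Tmem54, against 5.70 on Empty. Cd74 was above Empty by 0.38 and Tmem54 below it by -0.68, both past the model error. Between Cd74 and Tmem54 the difference was 1.06, or 2.09-fold.

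Tnip1 and Tnip3 encode related adaptors that bind ubiquitin and the Tnfaip3 protein. Tnip1 had a scaled signal of 16.7 on Cd74 and 15.6 on Tmem54, against 18.7 on Empty (chromosome 11, 54724291 to 54724350, mm9). Its arrays lay close together, with -0.17 for Cd74 and -0.27 for Tmem54. A second, dim probe (54754213 to 54754272) gave -0.54 and -0.30, so that the 2 probes place Cd74 and Tmem54 in opposite order.

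Tnip3 had a scaled signal of 1.69 on Cd74 and 0.376 on Tmem54, against 1.07 on Empty (chromosome 6, 65550106 to 65550165, mm9). It differed most of the 10 genes in each of the 3 comparisons. Cd74 was 0.66 above Empty, or 1.58-fold, and Tmem54 was -1.50 from Empty, or 2.83-fold lower. Between Cd74 and Tmem54 the difference was 2.16, or 4.48-fold. A second probe (65582156 to 65582215) gave 0.51, -1.65 and 2.16, so both probes placed the 3 arrays in the same order with similar gaps. That second probe was dim on Tmem54, with a processed signal of 93.7. Of the 2 adaptors, Tnip1 thus varied little between the arrays at its brighter probe, and Tnip3 varied most.

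**Figure D2:**
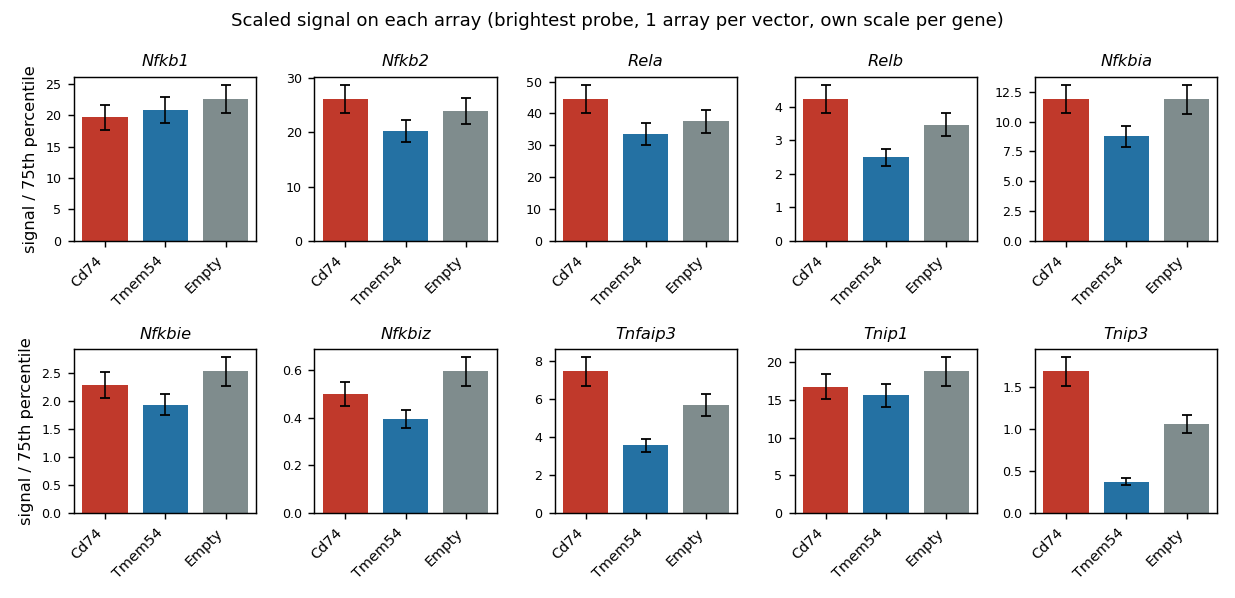
Scaled signal (processed signal over the array's 75th percentile, linear axis from 0, own scale for each gene) of the brightest probe on the Cd74, Tmem54 and Empty arrays, 1 array per bar, with the model error of the signal as error bars. The Tmem54 bar is the lowest for every gene except Nfkb1, and the relative gaps are widest for Tnip3, with 1.69 on Cd74 and 0.376 on Tmem54, against 1.07 on Empty.

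For Tmem54 against Empty, 3 of the 10 genes, Tnip3, Tnfaip3 and Nfkbiz, were at least 1.5-fold lower, where 2.49% of 15516 genes were, and none of the 10 (0) was at least 1.5-fold higher, where 1.32% were. At 2-fold only Tnip3 counted as lower, where 0.812% of genes did, and 0 as higher, where 0.522% did. Lower by any amount held for 10 of the 10 genes and for 51% of all genes, and higher for 0 of the 10 and 49% of all genes. Lower by more than the model error held for 8, the exceptions being Nfkb1 and Rela, and for 8.55% of all genes, and higher by more than it for 0, beside 5.92%. The median of the 10 was -0.41, beside -0.003 over all genes. Of the 19 probes that could be measured, 19 were below 0. The share of all genes at least as far below Empty was 0.425% at Tnip3, 1.83% at Tnfaip3, 2.43% at Nfkbiz, 3.76% at Relb and 4.41% at Nfkbia.

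For Cd74 against Empty, 1 of the 10 genes, Tnip3, was at least 1.5-fold higher, where 3.39% of 15614 genes were, and 0 were at least 1.5-fold lower, where 4.14% were. At 2-fold 0 were higher and 0 lower, beside 1.02% and 1.4% of all genes. The 6 genes higher by any amount are near the background of 52.4%. Higher by more than the model error held for 4, Rela, Relb, Tnfaip3 and Tnip3, where 18.3% of all genes were, and lower by more than it for 1, Nfkbiz, where 16.1% were. The median of the 10 was 0.07, beside 0.01 over all genes, and the genes ran from -0.24 to 0.66. Of the 19 probes 10 were above 0 and 9 below.

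For Cd74 against Tmem54, 3 genes were at least 1.5-fold higher, Tnip3, Tnfaip3 and Relb, where 5.07% of 15423 genes were, and 2 of them, Tnip3 and Tnfaip3, were at least 2-fold higher, where 1.63% were. None (0) was at least 1.5-fold lower, where 4.79% were. None (0) was at least 2-fold lower, beside 1.69%. Higher by any amount held for 9, and for 54.4% of all genes, and lower for 1, Nfkb1, beside 45.6%. Higher by more than the model error held for 8, the exceptions being Nfkb1 and Tnip1, beside 22.3%, and lower by more than it for 0, beside 17.4%. The median of the 10 was 0.39, beside 0.03 over all genes. Each pair of comparisons shares an array, so the 3 are not separate evidence. The order Cd74, Empty, Tmem54 held for 6 genes, Nfkb2, Rela, Relb, Nfkbia, Tnfaip3 and Tnip3, and the order Empty, Cd74, Tmem54 for Nfkbie, Nfkbiz and Tnip1. Over the 14473 genes well above background on all arrays, Cd74 was highest for 46.1%, Tmem54 for 32.3% and Empty for 21.6%, beside 6, 0 and 4 of the 10 genes. Cd74 was lowest for 38.8%, Tmem54 for 36.6% and Empty for 24.6%, beside 1, 9 and 0 of the 10. Both steps of the order exceeded the model error for 4 genes, Relb, Nfkbiz, Tnfaip3 and Tnip3.

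**Figure D3:**
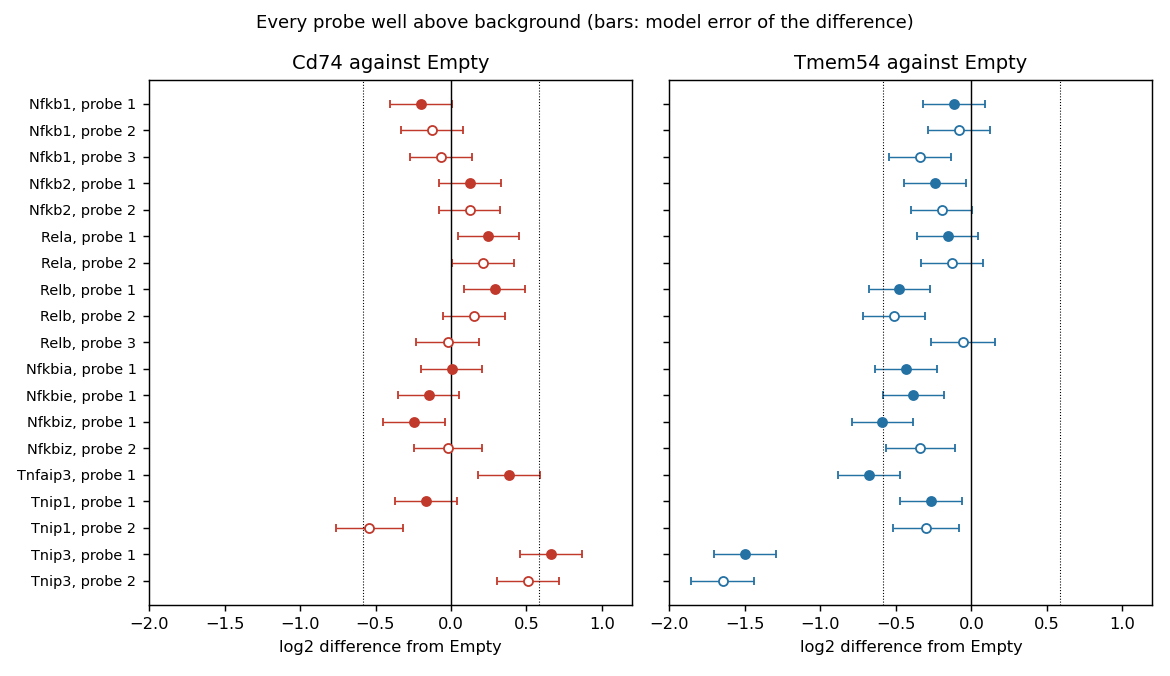
Log2 difference from Empty of every measured probe, for Cd74 on the left and Tmem54 on the right, with filled points for the brightest probe of a gene, open points for its other probes, bars for the model error of the difference and dotted lines at 1.5-fold. All 19 probes lie below 0 for Tmem54 against Empty, and 10 of 19 lie above 0 for Cd74 against Empty.

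**Figure D4:**
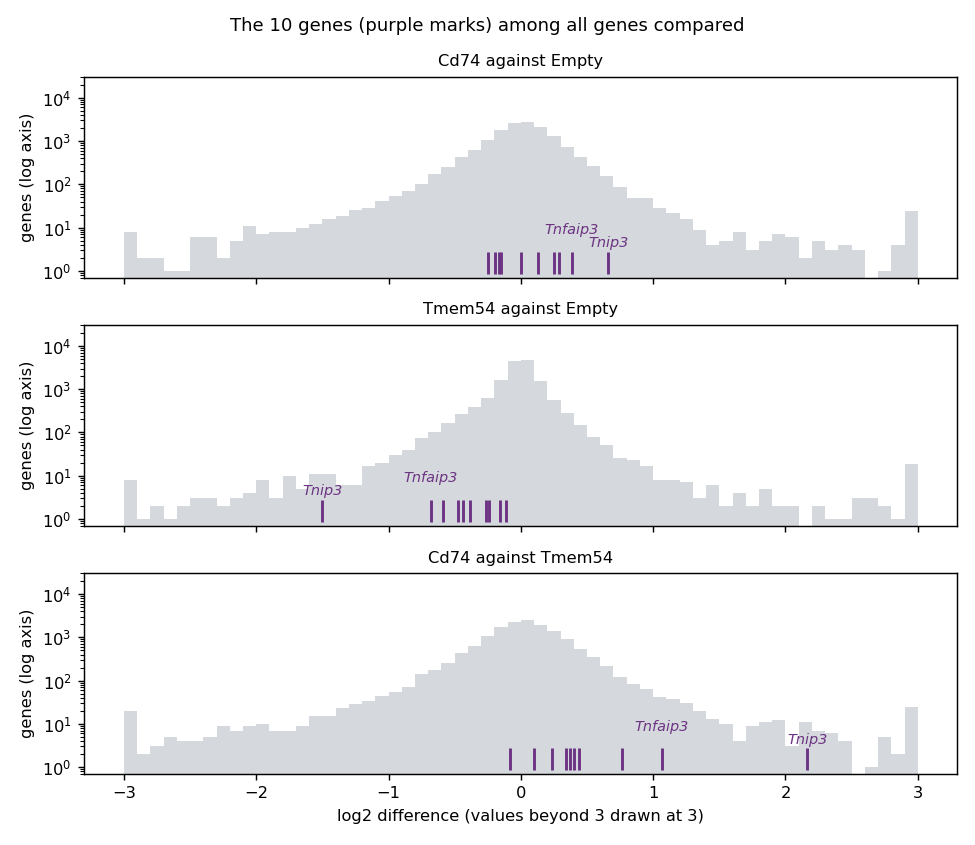
Histograms of the log2 difference over all genes compared, on a log count axis, with purple marks for the 10 genes, in 1 panel per comparison (values beyond 3 are drawn at 3). Tnip3 lies at -1.50 in the Tmem54 panel and at 0.66 in the Cd74 panel, and all 10 marks lie left of 0 for Tmem54.

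The rest of the pathway was described from lists of genes by role. Over all genes, 3.39% were at least 1.5-fold higher and 4.14% lower for Cd74 against Empty. The shares were 1.32% and 2.49% for Tmem54 against Empty, and 5.07% and 4.79% for Cd74 against Tmem54. Counts of 0 or 1 in the short lists below are read beside these shares only. Of the 6 other Rel and IkB genes, 0 reached 1.5-fold in any comparison, and their median was -0.06 for Cd74 and -0.07 for Tmem54 against Empty. Bcl3, a nuclear IkB protein, had processed signals of 6412 on Cd74 and 6347 on Tmem54, against 8311 on Empty, a difference of -0.31 and -0.40. Rel, another transactivating subunit, was at -0.17 and -0.31, and Nfkbib, which encodes IkB beta, at 0.19 and -0.12.

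The 6 genes of the IkB kinases had a median of 0.08 for Cd74 and -0.03 for Tmem54. Ikbkg, the regulatory subunit of the kinase complex, was the 1 gene to reach 1.5-fold. It was higher on Cd74 than on Empty, as 3.39% of all genes were by that much. Its processed signals were 1304 on Cd74 and 845 on Tmem54, against 883 on Empty, or 0.63 and -0.08. Chuk, a catalytic subunit, was at 0.11 and 0.04, and Map3k14, the kinase of the alternative pathway, at -0.22 and 0.11.

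The 27 adaptors and ligases that carry the signal from receptors had a median of 0.05 for Cd74 and -0.0005 for Tmem54 against Empty. Of the 27, 10 were below Empty on Cd74 and 14 on Tmem54. Traf2, an adaptor of tumour necrosis factor receptors, was at 0.25 and -0.12. Traf6, which serves Toll-like and interleukin receptors, was at 0.35 and -0.05. Birc2 was at -0.35 and -0.10, and Tab3 at 0.40 and 0.10. The 1 gene of the list that was at least 1.5-fold lower on Tmem54, where 2.49% of all genes were, was Traf1. It was named here after its values were seen, with processed signals of 356 on Cd74 and 110 on Tmem54, against 244 on Empty. Its differences were 0.61, -1.16 and, between Cd74 and Tmem54, 1.77. Traf1 is known from elsewhere as a gene that NF-kB can switch on, and a part of NF-kB in these values was not tested.

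The 13 other brakes on the pathway had medians of -0.05 and -0.02 against Empty. Pdlim2, which encodes a ligase for nuclear Rela protein, was above Empty on Tmem54, where all 10 loop genes were below it, with 4978 on Cd74 and 9521 on Tmem54, against 7421 on Empty, or -0.51 and 0.35. Zfp36, whose product destabilises cytokine messages, was at 0.30 and -0.02. No gene of this list (0) reached 1.5-fold against Empty. Between Cd74 and Tmem54 Pdlim2 was at -0.86, or 1.81-fold lower on Cd74. It was the 1 gene of the list at least 1.5-fold lower there (4.79% of all genes were), and 0 were higher (5.07%).

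Of 16 receptors 12 were well above background, with medians of 0.03 and -0.02, and of 11 ligands 6, with medians of -0.06 and -0.11. Tnfrsf1a, the main receptor of tumour necrosis factor, was at -0.15 and 0.11, Tlr2 at 0.15 and -0.24, and the ligand Il18 at 0.16 and 0.05. The interleukin receptor Il1r1, named after its values were seen, was the 1 receptor past 1.5-fold, at -0.61 and 0.13. At least 1.5-fold lower on Cd74 than on Empty were 4.14% of all genes. Il1a, Il1b, Tnfsf11, Tnfsf14 and Cd40lg among the ligands were not well above background on any array. No ligand (0) reached 1.5-fold in any comparison.

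Among 26 genes that NF-kB is known to switch on outside the loop, the Tmem54 array was lower for 24 of 25 genes compared with Empty, where 51% of all genes were. In that list 13 were at least 1.5-fold lower (2.49% of all genes were), 10 at least 2-fold lower (0.812%) and 0 at least 1.5-fold higher (1.32%), and the median was -0.60. The chemokine gene Cxcl1 had 8282 on Cd74 and 2564 on Tmem54, against 9268 on Empty, or -0.10 and -1.87. Cxcl5, another neutrophil chemokine, was at -0.63 and -1.83, the monocyte chemokine Ccl7 at 0.23 and -1.65, and Lcn2, an iron-scavenging acute phase protein, at -0.42 and -1.89. Those 4 were named for the largest differences between arrays among the brighter genes of the list. Other targets lay near Empty on Tmem54. Icam1 was at -0.06, Sod2 at -0.11, Irf1 at -0.11 and Bcl2l1 at 0.02, named after their values were seen. For Cd74 against Empty the list had a median of -0.07, with 2 genes at least 1.5-fold higher (3.39% of all genes were) and 2 lower (4.14%). The median of the targets on Tmem54 lay below that of the 10 loop genes, -0.41, while the difference of Tnip3, -1.50, lay within the range of the targets. These lists were chosen with results of these arrays known.

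A list of 9 immediate early, STAT and interferon genes outside the pathway had medians of 0.09 and -0.23. Jun was at 0.40 and -0.23, Atf3 at 0.95 and -0.43, Egr1 at 0.14 and -0.48, and Irf7 at -1.43 and -1.21, for Cd74 and Tmem54 against Empty. Those 4 were named for the largest differences between arrays. On Tmem54 7 of the 9 were below Empty, beside 51% of all genes, and 1, Irf7, by at least 1.5-fold, beside 2.49%. Fos was at 0.32, Socs3 at 0.20 and Stat3 at -0.02, named after their values were seen.

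**Figure D5:**
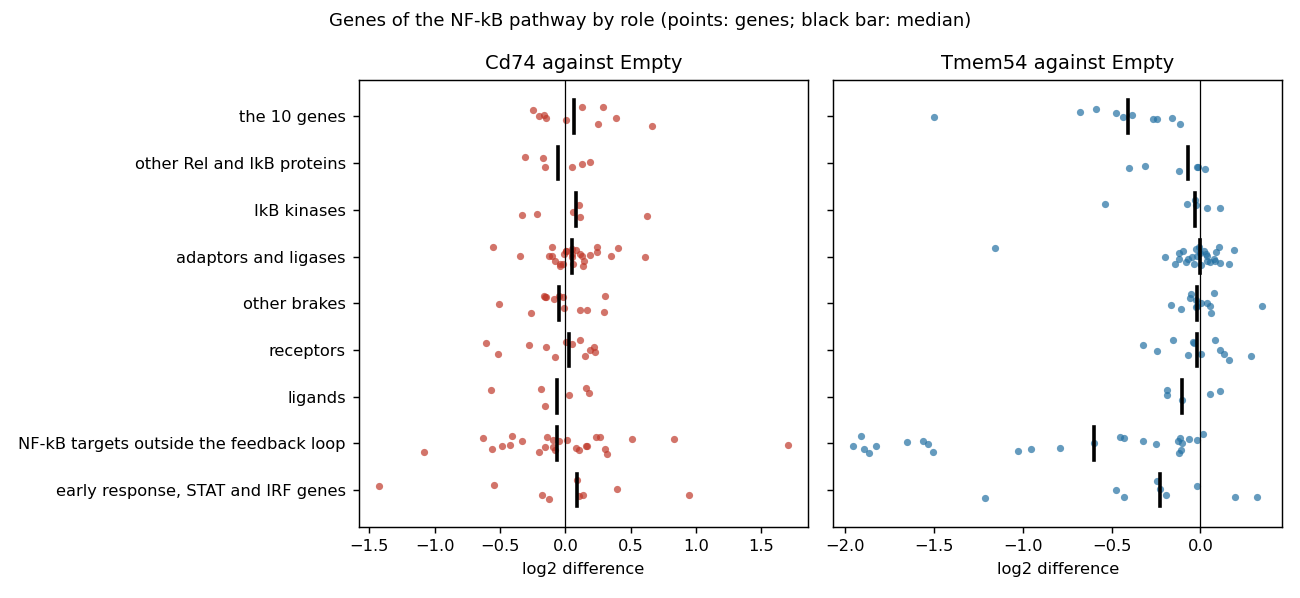
Log2 difference of each gene in the pathway lists for Cd74 against Empty and Tmem54 against Empty, 1 point per gene with the median of each list as a black bar. The list of targets has the lowest median for Tmem54, -0.60, below the -0.41 of the 10 loop genes.

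Among 9564 bright genes, the 5 closest to Tnip3 over the 2 differences from Empty were Ccl7 (distance 0.46), Nudt7 (0.56), Ccl2 (0.62), Gm10639 (0.63) and Bcl2l15 (0.68). None (0) of these is one of the 10 genes. The 5 closest to Nfkbia, with a level Cd74 value and a lower Tmem54 value, were Slpi (0.051), Parp14 (0.052), Plscr2 (0.052), Cep43 (0.066) and Chd1l (0.083). The distances to Nfkbia were shorter than those to Tnip3.

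Markers of cell types were read beside these values. Of 13 hepatocyte genes 6 were well above background, and Ttr, Apoa1, Apob, Apoh, Hnf4a, Fgb and Ahsg were not. The summed scaled signal of the 6 was 688 on Cd74 and 743 on Tmem54, against 715 on Empty. Krt18 made up most of that sum, and the other 5 summed to 294 on Cd74 and 338 on Tmem54, against 317 on Empty. The median difference of the 6 was -0.18 for Cd74, with 5 below 0 (47.6% of all genes were), and 0.08 for Tmem54, with 0 below 0 (51%). All 6 were lower on Cd74 than on Tmem54, where 45.6% of all genes were. For Cd74 and Tmem54 against Empty, Afp was at 0.02 and 0.05, Krt8 at -0.04 and 0.07, and Krt18 at -0.02 and 0.02. Trf was at -0.32 and 0.08, and the dim Serpina1a at -0.33 and 0.15. Albumin, Alb, had 2993 on Cd74 and 10261 on Tmem54, against 5727 on Empty, so its order across the arrays was the reverse of that of Tnip3 and Tnfaip3. The part of the hepatocyte genes in the result was not tested. The sums were 20.9 and 21.1, against 21.8 on Empty, for 7 of 9 macrophage genes, with Adgre1 and Clec4f not well above background. Of these 7 genes, 5 were lower on Cd74 than on Tmem54. Cd68 went the other way, with processed signals of 1622.5 on Cd74 and 1108 on Tmem54, against 1186 on Empty. It was the 1 gene of the list at least 1.5-fold higher on Cd74 than on Tmem54, where 5.07% of all genes were. Its part in the result was not tested. The sums were 2.85 and 2.81, against 2.88, for 4 of 7 lymphocyte genes, with Cd79a, Cd3g and Cd8a not well above background. Fibroblast genes, 7 of 9, with Lum and Lrat not well above background, summed to 140 on Cd74 and 119 on Tmem54, against 132 on Empty. Dcn made up most of that sum, and the other 6 genes had the reverse order, with 24.8 on Cd74 and 36.7 on Tmem54, against 33.6 on Empty. The median difference of the 7 genes was -0.25 for Cd74, with 6 below 0, and 0.20 for Tmem54, with 2 below 0, and Col1a1 was at -0.76 and 0.31. The part of these genes in the result was not tested. Endothelial genes, 2 of 5, summed to 0.162 and 0.180, against 0.200 on Empty.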

How the data were processed

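RNA was read on 1 array for each vector, grouped by the transfection label. The authors obtained the spot intensity with Agilent Feature Extraction (version 12.0.3.1 in the submitters' processing notes), and the deposited processed signal used here is linear and detrended, per the file headers. The deposited value table, used as an alternative, holds the same signal divided by 1 constant per array (559.8 for Cd74, 580.7 for Tmem54, 580.3 for Empty), so it is linear and uncentred, with column medians of 0.0393, 0.0390 and 0.0409.

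Values are log2 processed signals after subtraction of the log2 75th percentile on the same array, a signal of 656.4 for Cd74, 692.7 for Tmem54 and 686.8 for Empty. Control spots and the 119 to 135 outlier spots per array were left out, and replicate spots were averaged. A gene took its brightest detected probe, and a difference with 1 dim array was taken as a bound. Symbols came from RefSeq (GRCm38.p6), matched for 33762 probes by accession, 9865 by symbol and 310 by synonym, and 12657 unmatched probes were left out. Probe positions are on mm9, as the array files give them, and exon annotation of that build was not used here.

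With 1 array per vector no test was run, and genes were counted at 1.5-fold, 2-fold and the model error. The counting was tested on simulated data. The 10 genes, the pathway lists and the markers were chosen with earlier results of these data known. Named genes are the 10, up to 4 bright genes per pathway list with the largest difference between any 2 arrays, and the 5 nearest to Tnip3 and to Nfkbia by Euclidean distance, where bright means detected on all 3 arrays and at or above the median signal of detected probes. The 7 alternatives were normexp background correction (limma 3.58.1, offset 50), scaling to the median of detected probes, quantile normalization, the value table, the mean of detected probes, the next-brightest probe and bright probes only. Python 3.11.15, pandas 2.3.3 and R 4.3.3 were used.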

Additional observations from a re-analysis of the deposited data

How the results depend on the processing

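Of the 7 alternatives, bright probes only leaves all 10 genes as they are, the mean of probes leaves the 3 genes with 1 probe, and those 3 have no next-brightest probe. Of the 54 values that could move, 54 were below Empty on the Tmem54 array, with medians of -0.41 to -0.30. Median scaling and the value table only change 1 constant per array, so they shift all genes alike. Both took Nfkb1, the gene nearest to Empty, from -0.11 to -0.10. The signs under these scalings are therefore not separate checks of each gene. For Cd74 against Empty 51 of 54 kept their sign, and the 3 others were of Nfkbia. For Cd74 against Tmem54 51 of 54 kept it, and the others were of Nfkb1 and Tnip1, where the next-brightest Tnip1 probe gave -0.24. The count of genes at least 1.5-fold lower on Tmem54 was 2 under normexp correction, median scaling, quantile normalization, the value table and the mean of probes, against 3. Nfkbiz was at -0.58 under the 3 scalings, next to the line, and at -0.47 under normexp correction. With the mean of probes it was at -0.46, the average of -0.59 and -0.34 at its 2 detected probes. The cause of the shifts under normexp correction and quantile normalization was not tested. With next-brightest probes, which 7 genes have, the count was 1, and for Cd74 against Empty the higher count was 0 against 1. Normexp correction gave -1.28 for Tnip3 on Tmem54 and 1.91 for Cd74 against Tmem54. The mean of probes gave 0.49 for Relb between Cd74 and Tmem54. Counts over all genes at 2-fold and 1.5-fold were 379 and 1176 for Cd74 against Empty, 207 and 591 for Tmem54 against Empty and 512 and 1521 for Cd74 against Tmem54. In the same order, normexp correction gave 119 and 421, 66 and 157, and 197 and 695, next-brightest probes, which fewer genes have, gave 99 and 431, 67 and 232, and 131 and 591, and bright probes only gave 54 and 261, 18 and 37, and 111 and 469. Quantile normalization gave 260 genes at least 1.5-fold higher and 300 lower for Tmem54 against Empty (46.4% higher), against 205 and 386 (34.7%). Bright probes only, which 9565 genes have, all of the 10 among them, gave 7 higher and 30 lower (18.9%). The other alternatives lay between 36.1% and 40.9%. No paired analysis was possible because each vector has 1 array. Low signal limits the dimmer probes of Relb, Nfkbiz and Tnip1 most. The second Tnip3 probe was also dim on the Tmem54 array, at 93.7, against 395.9 on Cd74 and 291.2 on Empty.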
